A study of Homo sapiens with 6 samples.

Results

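The bladder cancer cell lines 5637 and UM-UC-3 were compared at the level of the transcriptome, as a contrast of cell line identity. The comparison rested on 5 of the 6 RNA-sequencing libraries of the series. On one side were the 2 libraries of 5637 cells that expressed a short hairpin RNA against LNMAT1 (sh-LNMAT1#1 and sh-LNMAT1#2). On the other side were the 3 libraries of UM-UC-3 cells, which expressed sh-LNMAT1#1, sh-LNMAT1#2 or a negative control hairpin (sh-NC). The libraries were taken by their labels, except that the library labelled 5637 sh-NC was left out, for the reason given with the markers.

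The study silenced LNMAT1, the long noncoding RNA LINC01296, to find genes that depend on it. All cells were transduced with lentivirus and kept in puromycin for 2 weeks, so the cells on both sides carried an integrated hairpin vector. The 5637 cells were grown in RPMI medium and the UM-UC-3 cells in DMEM, both with fetal bovine serum, and the line and its medium cannot be told apart. Each construct was sequenced once in each line. The libraries of a line therefore differed by hairpin, and nothing states that they came from separate cultures, so p-values measure only the spread between these libraries, which may be technical. Both 5637 libraries were knockdown libraries, whereas 1 of the 3 UM-UC-3 libraries was a control.

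Carcinoma cells of the bladder can be more epithelial or more mesenchymal. Epithelial cells hold together through cadherin junctions and desmosomes, anchor to laminin through hemidesmosomes, and build their cytoskeleton from keratins. Transcription factors such as GRHL2 and OVOL1 keep this program on, whereas ZEB and SNAI factors repress it, and mesenchymal cells use vimentin in place of keratins.

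Expression was given as FPKM, fragment counts scaled by transcript length and by library depth. The depth read from single-exon genes lay between 19374935 and 24706947 fragments in the 5 libraries. Of the genes in the table, 12747 had a mean of at least 1 FPKM over the 5 libraries and were tested with limma on log2(FPKM + 0.5). Differences below are 5637 minus UM-UC-3 on this log2 scale, given with standard errors, and a gene was called at a Benjamini-Hochberg adjusted p under 0.05. A linear fold is given where both group means were at least 1 FPKM, because the added 0.5 understates the change of low genes. Levels in UM-UC-3 are listed in the order sh-NC, sh-LNMAT1#1, sh-LNMAT1#2, and levels in 5637 in the order sh-LNMAT1#1, sh-LNMAT1#2. A level of 0 means that the gene was listed at 0.

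LINC01296, the target of the hairpins, was present in both lines (ENSG00000244306, chromosome 14, 19284653 to 19337730, hg38). It stood at 4.70 and 2.14 FPKM in 5637 and at 14.2, 6.20 and 6.70 FPKM in UM-UC-3. Both 5637 values lay below every UM-UC-3 value, but the difference of -1.27 ± 0.44 (SE) was not called (adjusted p = 0.058). It was called without the UM-UC-3 sh-LNMAT1#1 library (-1.47, adjusted p = 0.043). Within UM-UC-3 both knockdown libraries lay below the control library, with 1 library each and no test. GENCODE classes the locus as a transcribed processed pseudogene, so its level is uncertain where reads are shared with related copies.

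Epithelial markers were high in 5637 and near 0 in UM-UC-3, and vimentin was the reverse. Keratin 19 (KRT19), an intermediate filament of simple epithelia, was at 299.6 and 409 FPKM in 5637 and at 0.113, 0.0629 and 0.0712 FPKM in UM-UC-3. The siderophore-binding lipocalin LCN2 was at 583 and 616 FPKM in 5637 and at 0.117 to 0.202 FPKM in UM-UC-3. S100A9, a subunit of the antimicrobial protein calprotectin, had the highest mean level in 5637 among nuclear genes with a symbol, at 3032 and 2819 FPKM, against 0.311 to 0.831 FPKM in UM-UC-3. Each of these genes separated the lines without overlap. Integrin β4 (ITGB4), the hemidesmosome receptor for laminin, was at 111 and 109 FPKM against 0.0161 to 0.0356 FPKM. Vimentin (VIM), the intermediate filament of mesenchymal cells, was at 3.85 and 4.14 FPKM in 5637 and at 332, 116 and 155 FPKM in UM-UC-3, a mean 50.3-fold higher in UM-UC-3. The differences were 9.23 ± 0.20 for KRT19, 9.86 ± 0.17 for LCN2, 11.42 ± 0.25 for S100A9, 7.72 ± 0.17 for ITGB4 and -5.34 ± 0.43 for VIM, and all 5 markers were called. The library labelled 5637 sh-NC was left out for its values on these markers, so their calls are no separate support. With it on the 5637 side no marker was called (adjusted p = 0.34 for each). In hg38 the table places KRT19 (ENSG00000171345) on chromosome 17 from 41523617 to 41528308, LCN2 (ENSG00000148346) on chromosome 9 from 128149071 to 128153455, S100A9 (ENSG00000163220) on chromosome 1 from 153357854 to 153361027, ITGB4 (ENSG00000132470) on chromosome 17 from 75721328 to 75757818 and VIM (ENSG00000026025) on chromosome 10 from 17228259 to 17237593, and the values are for whole genes.

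**Figure D1:**
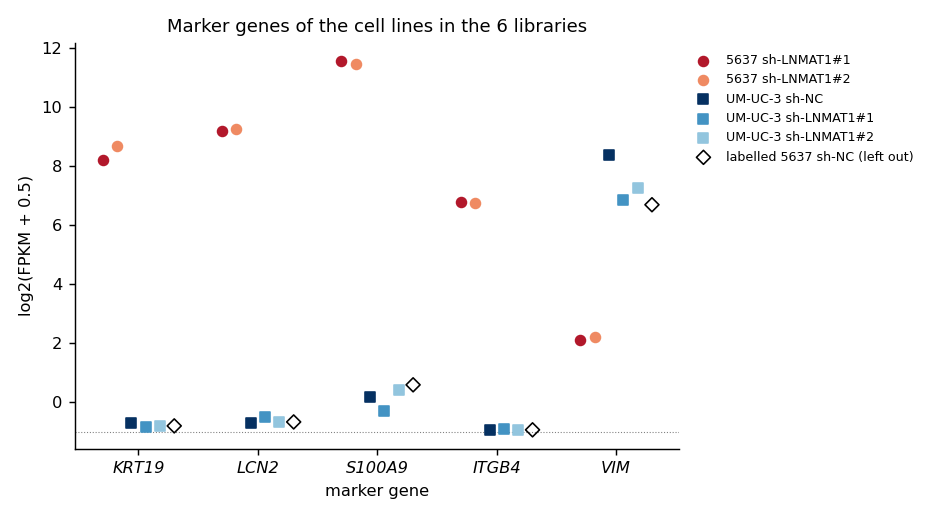
The plot shows 5 marker genes on the x axis and log2(FPKM + 0.5) on the y axis, with 1 symbol for each of the 6 libraries and a dotted line at 0 FPKM. KRT19, LCN2, S100A9 and ITGB4 were high in both 5637 knockdown libraries and low in UM-UC-3, VIM was the reverse, and the open diamond of the library labelled 5637 sh-NC lay with the UM-UC-3 squares for each gene.

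The library labelled 5637 sh-NC went against its label on each of these genes. It held 0.0729 FPKM of KRT19, 0.129 of LCN2, 1.00 of S100A9, 0.0221 of ITGB4 and 103 of VIM. Across the tested genes its Pearson r was 0.985 with the UM-UC-3 sh-LNMAT1#1 library, and 0.619 and 0.624 with the 5637 knockdown libraries. For comparison, r was 0.974 between the 5637 knockdown libraries, 0.925 to 0.969 within UM-UC-3 and 0.618 to 0.637 across the lines. Added to the 5637 side as its label says, it left 1 gene called higher and 1 called lower, with 1727 genes at an unadjusted p under 0.05.

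The promoters of LCN2 and S100A9 are shown because these markers differed most and their windows held the E-box CAGGTG, the DNA motif that ZEB and SNAI repressors bind. They were thus chosen partly for the motif, and of the 5 markers VIM was the other one with a promoter entry, since KRT19 and ITGB4 had none. The sequences run 5′ to 3′ from 250 bases before to 50 bases after the gene start (RefSeq, GRCh38.p14, plus strand), and capitals mark CAGGTG or its complement CACCTG. The LCN2 window lies at chr9:128149203-128149502 and held 2 matches, and the S100A9 window lies at chr1:153357604-153357903 and held 1. The LCN2 window lies inside the gene as placed above (128149071 to 128153455), since the annotations start this gene at different positions. The S100A9 window spans the start given above.
LCN2: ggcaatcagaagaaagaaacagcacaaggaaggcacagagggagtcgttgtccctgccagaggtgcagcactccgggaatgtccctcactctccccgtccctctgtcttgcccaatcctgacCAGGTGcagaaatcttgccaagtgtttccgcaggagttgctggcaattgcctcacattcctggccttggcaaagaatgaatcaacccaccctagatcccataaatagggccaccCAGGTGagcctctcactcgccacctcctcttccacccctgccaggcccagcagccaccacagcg
S100A9: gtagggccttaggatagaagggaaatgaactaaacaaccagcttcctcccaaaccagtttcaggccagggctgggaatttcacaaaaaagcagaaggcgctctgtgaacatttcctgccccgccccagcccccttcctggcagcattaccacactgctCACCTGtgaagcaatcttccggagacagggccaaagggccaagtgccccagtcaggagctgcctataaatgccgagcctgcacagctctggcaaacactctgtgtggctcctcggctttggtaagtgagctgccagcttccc
Either strand of the motif was present in 20.6% of 27305 promoters of this length and in 17.7% of the 8513 promoters of tested genes. Of the 87 symbols in the junction, epithelial regulator and mesenchymal lists described below 55 had a promoter entry. The motif was in 9 of 20 promoters of junction genes (45.0%), with 5 matches in the polarity gene CRB3, in 5 of 12 promoters of epithelial regulators (41.7%) and in 3 of 23 promoters of mesenchymal genes (13.04%). The 17.7% counts promoters whose symbol matched that of a tested gene. Matched in the same way, 6 of 12 promoters of junction genes held the motif. For epithelial regulators it was 3 of 10, and for mesenchymal genes 2 of 14. Tested junction genes listed under another name were not matched, so these counts are incomplete. The windows of VIM, JUP, EHF and KLF5 held no match, and CDH1, CDH3, EPCAM, F11R and ESRP1 had no promoter entry. A match is a description of the letters and shows no binding.

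Without the library labelled 5637 sh-NC, 2710 genes were called higher in 5637 (21.3% of those tested) and 2757 lower (21.6%), 42.9% in all. Median-ratio scaling between libraries moved the median difference over all genes by 0.18 and the split to 3329 against 2063, so that 61.7% of calls were higher in place of 49.6%. A difference of at least 2-fold beside the call held for 1958 higher and 1737 lower genes, and of at least 10-fold for 388 and 129. The 2 groups of libraries did not overlap for 66.0% of tested genes. The median absolute difference between lines was 0.61, against a median range of 0.50 within the 3 UM-UC-3 libraries and a median gap of 0.18 between the 5637 libraries. Of 966 tested long noncoding RNAs 164 were called higher and 355 lower, with a median difference of -0.43, against a median of -0.0045 over 10720 protein-coding genes.

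The gene groups below are lists of known pathway members, and each count is read against the 21.3% and 21.6% of tested genes called higher and lower. A gene near 0 in one line passed the filter only through its level in the other, so the counts describe the tested members of each list and are no support for a difference by themselves. Without the 5637 sh-LNMAT1#1 library the counts over all genes fell to 1116 higher and 1040 lower, and without the 5637 sh-LNMAT1#2 library to 1240 and 1131, so list counts without these libraries are given where they moved by over 1.5-fold.

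Keratins were higher in 5637 wherever they were called. Of 7 listed keratins of simple epithelia 6 were tested and 5 were called higher, with a median difference of 3.15. Next to KRT19, the type II keratin KRT7 was at 167 and 223 FPKM in 5637 and at 0.736 to 0.895 FPKM in UM-UC-3. KRT8 was present in both lines, at 49.3 and 58.9 FPKM against 4.36 to 4.65 FPKM, a mean 12.01-fold higher in 5637. The hair keratin KRT81 differed by 1.87 and was not called (adjusted p = 0.066), and its 5637 values of 1.09 and 7.44 FPKM lay far apart. Without the 5637 sh-LNMAT1#1 library it was called higher (3.04, adjusted p = 0.019). Of 13 listed basal and squamous keratins 7 were tested and 5 were called higher, with a median of 5.10. KRT5, the keratin of the basal layer, averaged 118 FPKM in 5637 and 0.0371 FPKM in UM-UC-3. KRT17, a keratin of basal and activated epithelium, was at 52.1 and 89.4 FPKM against 0.0405 to 0.0864 FPKM. KRT14, the usual partner of KRT5, was at 0.198 and 0.230 FPKM in 5637 and listed at 0 in UM-UC-3, and was below the filter. KRT10 (0.25) and KRT15 (0.75) were not called. Without the UM-UC-3 sh-LNMAT1#1 library KRT10 was called higher (0.64, adjusted p = 0.020). KRT15 was called higher without the UM-UC-3 sh-NC library (1.05, adjusted p = 0.014).

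Junction genes showed the same direction. Of 29 listed genes of adherens junctions, tight junctions and desmosomes 23 were tested, 20 were called higher in 5637 with differences from 1.71 to 7.02, and 0 were called lower. Plakoglobin (JUP), which links cadherins to the cytoskeleton, was at 77.8 and 91.3 FPKM in 5637 and at 0.0923 to 0.225 FPKM in UM-UC-3. P-cadherin (CDH3) was at 39.5 and 43.0 FPKM against 0.0344 to 0.0859 FPKM, and the adhesion molecule EPCAM was at 33.8 and 35.6 FPKM against 0.00945 to 0.0210 FPKM. E-cadherin (CDH1), named after its values were seen because it defines the adherens junction, was at 19.2 and 14.1 FPKM against 0.00301 to 0.00931 FPKM. The 5637 libraries were high and the UM-UC-3 libraries near 0 for each of these 4 genes. The tight junction receptor F11R was at 43.3 and 46.3 FPKM against 0.522 to 1.07 FPKM. The scaffold TJP1 (-0.06 ± 0.22) and p120-catenin, CTNND1 (0.23 ± 0.18), were not called: the lines overlapped for TJP1, and for CTNND1 the lowest 5637 value lay just above the highest UM-UC-3 value.

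The transcription and splicing factors of the epithelial program were also higher in 5637: 18 of 23 listed genes were tested, 16 were called higher and 0 lower, with a median of 3.17. The ETS factor EHF was at 28.5 and 43.8 FPKM in 5637 and in UM-UC-3 at 0.0185 to 0.0348 FPKM. The splicing regulator ESRP1 was at 24.0 and 19.8 FPKM against 0.0228 to 0.0842 FPKM. KLF5, a Krüppel-like factor of basal epithelia, was a mean 51.3-fold higher in 5637 (difference 5.14 ± 0.23, adjusted p = 1.8e-05). TFAP2A (0.12) was not called. KLF4 (-0.67, adjusted p = 0.089) was not called either, and without the UM-UC-3 sh-NC library it was called lower in 5637 (-0.89, adjusted p = 0.022). Of 12 listed genes of differentiated urothelium, uroplakins among them, 2 were tested. The lipid carrier FABP4 was called, at 34.1 and 31.3 FPKM against 0 to 0.0182 FPKM, and the signal SHH (-0.26) was not. Without any one of the UM-UC-3 libraries 2 genes of this list were called higher.

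The adhesion machinery that ties epithelial cells to laminin was mostly on the 5637 side. All 9 listed genes of hemidesmosomes and of their laminin ligand were tested, 6 were called higher and 2 lower, with a median of 2.31. The laminin chain LAMA3 was at 18.01 and 40.1 FPKM in 5637 and at 0.0554 to 0.248 FPKM in UM-UC-3. COL17A1, a hemidesmosomal collagen, was at 33.8 and 31.3 FPKM against 3.40, 0.216 and 1.16 FPKM, a mean 20.5-fold higher, and lost its call without the 5637 sh-LNMAT1#1 library (adjusted p = 0.053). The lower pair, named after their values were seen, were the cytoskeletal linkers PLEC (2.60-fold lower in 5637) and DST (4.57-fold lower). The tetraspanin CD151 (-0.12 ± 0.24) was not called.

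Mesenchymal genes did not form a group with 1 direction. Of 35 listed genes 21 were tested, 10 were called lower in 5637, 5 higher and 6 were not called, with a median of -0.31. ZEB1, a repressor of epithelial genes, was at 0.0264 and 0.00774 FPKM in 5637 and at 12.5, 12.7 and 8.67 FPKM in UM-UC-3. The matrix protein SPARC was at 0.0722 and 0.0634 FPKM against 35.3, 25.8 and 42.4 FPKM. Both were low in 5637 in each library, as was VIM. Fibronectin (FN1), a matrix protein often used as a mesenchymal marker, went the other way, at 109.6 and 102 FPKM in 5637 and 0.816, 2.27 and 1.07 FPKM in UM-UC-3, a mean 76.5-fold higher in 5637. SNAI2, named after its values were seen, was also higher in 5637 (9.10-fold), whereas its relative SNAI1 was lower (-1.62 ± 0.25). The smooth muscle actin ACTA2 (0.30) and the collagen COL6A1 (-0.31) were not called, and ACTA2 was called higher in 5637 without the UM-UC-3 sh-LNMAT1#1 library (0.74, adjusted p = 0.016).

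**Figure D2:**
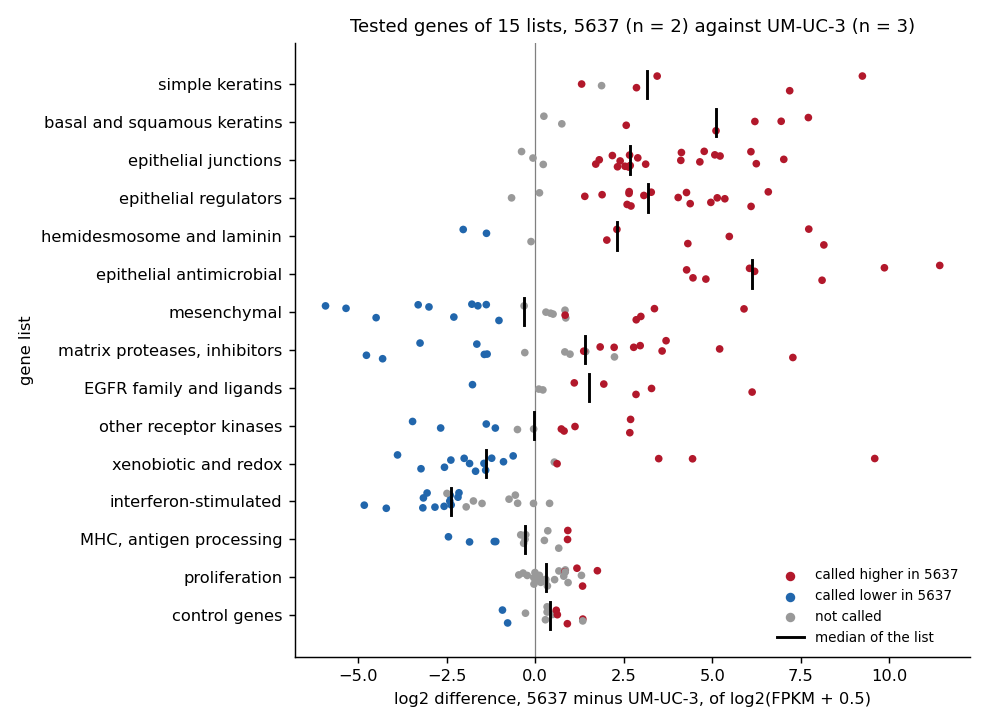
The plot shows the log2 difference (5637 minus UM-UC-3) of each tested gene on the x axis for 15 gene lists on the y axis, with points coloured by call and a black bar at each list's median. The keratin, junction, regulator and antimicrobial points lie to the right of 0 apart from a few genes that were not called, the mesenchymal points spread from -5.92 to 5.89, and the interferon-stimulated points lie mostly to the left with a median of -2.37.

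Antimicrobial and alarm genes of epithelial surfaces had the largest median of the lists with more than 1 tested gene. Of 16 listed genes 8 were tested and all 8 were called higher in 5637, with a median of 6.12. S100A9 and LCN2 led this list as well. The protease inhibitor SLPI was at 94.1 and 259 FPKM in 5637 and at 0.0679 to 0.0753 FPKM in UM-UC-3. S100A7 (psoriasin), an antimicrobial of squamous epithelium, was at 23.8 and 54.7 FPKM and listed at 0 in the 3 UM-UC-3 libraries. The related inhibitor PI3 (elafin) was at 10.1 and 63.6 FPKM against 0.281 to 1.32 FPKM, so its 5637 libraries differed from each other by more than its UM-UC-3 libraries. The other 8 listed genes, among them lactoferrin (LTF) and cathelicidin (CAMP), were below the filter in both lines.

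Cytokines and chemokines differed gene by gene. Of 10 tested growth factors and cytokines, from 17 listed, 3 were called higher and 2 lower, and without either 5637 library 1 was called lower. The alarmin IL1A was at 257 and 304 FPKM in 5637 and at 0 to 0.444 FPKM in UM-UC-3. The related cytokine IL1B was at 94.8 and 118 FPKM against 0.0585 to 0.405 FPKM. The granulocyte growth factor CSF3 was at 10.2 and 16.7 FPKM against 0.00675 to 0.0291 FPKM. These 3 genes were near 0 in UM-UC-3 and far above it in 5637. The stem cell factor KITLG was the reverse, at 2.52 and 2.53 FPKM against 7.93 to 8.26 FPKM (3.20-fold lower in 5637). IL18 (-0.42) was not called. LIF (-1.22, adjusted p = 0.064) was not called, and was called lower without the UM-UC-3 sh-NC library (-1.49, adjusted p = 0.044).

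Among the chemokines that draw neutrophils 6 of 7 listed genes were tested, and 1 was called in each direction, with 2 called lower without UM-UC-3 sh-LNMAT1#1. CXCL5 was at 58.2 and 81.9 FPKM in 5637 and at 0 to 0.0515 FPKM in UM-UC-3. CXCL3 was lower in 5637 (3.33-fold, adjusted p = 0.016), a call lost without either 5637 library (adjusted p = 0.12 in both cases). CXCL8, at 90.3 and 125 FPKM in 5637 and 179.8, 40.7 and 158 FPKM in UM-UC-3, differed by 0.02 ± 0.63 and was not called. Its UM-UC-3 values enclosed the 5637 values, and without the UM-UC-3 sh-LNMAT1#1 library it was called lower in 5637 (-0.66, adjusted p = 0.038). CXCL2 (-0.14) was not called.

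Among chemokines that draw monocytes and lymphocytes 5 of 13 listed genes were tested. CCL2, the monocyte attractant on which the study centred, was at 0.0578 and 0 FPKM in 5637 and at 25.2, 3.36 and 6.78 FPKM in UM-UC-3. CCL5 was at 0.0677 and 0.194 FPKM against 12.5, 3.62 and 9.31 FPKM. Both were called lower in 5637 (-4.09 ± 0.73 and -3.68 ± 0.48), and within UM-UC-3 both were highest in the control library. The left-out library labelled 5637 sh-NC, also a control by its label, held 3.78 FPKM of CCL2 and 3.35 FPKM of CCL5. These values were near the 3.36 and 3.62 FPKM of UM-UC-3 sh-LNMAT1#1, the library it resembled most (r = 0.985), so it gives no 5637 control level. The 5637 side held knockdown libraries only, so an effect of the hairpins on CCL2 and CCL5 in 5637 was not tested. The CCL2 call was lost without either 5637 library (adjusted p = 0.073 in both cases), and 1 gene of the list was then called lower. CXCL10 (2.05), an interferon-induced attractant of T cells, and CXCL16 (5.03-fold) were called higher in 5637, with 1 call without the 5637 sh-LNMAT1#1 library. CCL20, at 3.80 and 9.23 FPKM against 2.997, 0.301 and 8.94 FPKM, was not called.

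Receptors and ligands of the EGFR family leaned toward 5637: 8 of 12 listed genes were tested, 5 were called higher and 1 lower, with a median of 1.52. The lower gene, named after its values were seen, was the ligand NRG1 (4.53-fold lower), a call lost without either 5637 library. The ligand amphiregulin (AREG) was at 60.7 and 56.7 FPKM in 5637 and at 0.165 to 0.856 FPKM in UM-UC-3. The ligand TGFA was at 4.48 and 10.9 FPKM against 0.0787 to 0.847 FPKM, again with 5637 above every UM-UC-3 library. The receptor ERBB3 was at 3.77 and 4.44 FPKM against 0.0943 to 0.216 FPKM, and ERBB2 was a mean 4.40-fold higher. The ligands HBEGF (0.10) and EREG (0.22) overlapped between the lines. Of the other receptor tyrosine kinases 11 of 20 listed were tested, 5 were called higher and 4 lower, and the higher count was 2 without the 5637 sh-LNMAT1#1 library and 3 without sh-LNMAT1#2. The 2 collagen receptors went in opposite directions: DDR1 was 8.22-fold higher in 5637, and DDR2 was at 0.0717 and 0.0642 FPKM in 5637 against 4.84 to 7.49 FPKM in UM-UC-3. The insulin-like growth factor receptor IGF1R was 8.82-fold higher in 5637, and FGFR1 was at 0.795 and 0.871 FPKM against 7.47 to 8.32 FPKM. MET (-0.50, adjusted p = 0.069) and ROR1 (-0.04) were not called, and MET was called lower in 5637 without the UM-UC-3 sh-LNMAT1#1 library (-0.58, adjusted p = 0.030).

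Genes altered in bladder cancer were all expressed above the filter, and 8 of 24 were called higher in 5637 and 5 lower, with a median of -0.29. RB1, the retinoblastoma tumour suppressor, was at 0.893 and 0.804 FPKM in 5637 and at 31.7, 23.7 and 24.6 FPKM in UM-UC-3. The cell cycle inhibitor locus CDKN2A was the reverse, at 22.8 and 34.8 FPKM against 0.00463 to 0.00996 FPKM. MTAP, a purine salvage enzyme encoded beside CDKN2A, was at 5.65 and 8.23 FPKM and listed at 0 in UM-UC-3. Each line was thus low for a different cell cycle brake. The cell cycle factors E2F3 (7.58-fold higher in 5637) and CCND1 (4.26-fold lower) were named after their values were seen. TSC1 (-0.09) and the acetyltransferase CREBBP (-0.13) were not called. The higher count was 5 without the 5637 sh-LNMAT1#1 library, and the lower count was 3 without either 5637 library and 8 without UM-UC-3 sh-LNMAT1#1.

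CDKN2A lay within a longer run of neighbours near 0 in UM-UC-3. Runs were counted where at least 3 neighbouring protein-coding genes were each at 0.1 FPKM or less in all libraries of 1 line and averaged at least 1 FPKM in the other, passing over genes under 1 FPKM in both. There were 13 runs with 46 genes, 12 of them low in UM-UC-3 and 1 low in 5637, and the highest value of a run gene in its low line was 0.0964 FPKM. On chromosome 9 the run held MTAP, CDKN2A, CDKN2B and DMRTA1 (21802543 to 22455740, hg38), with means of 2.56 FPKM of CDKN2B and 1.03 FPKM of DMRTA1 in 5637. The nearest expressed genes outside it, IFNE and ELAVL2, averaged 0.295 and 0.0969 FPKM in UM-UC-3, so low values continued past both ends.

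The posterior HOXA cluster on chromosome 7, whose homeobox factors set position along the body axis, was a run of 5 genes from HOXA7 to HOXA13. HOXA9 was at 9.26 and 11.3 FPKM in 5637 and at 0 to 0.0147 FPKM in UM-UC-3. HOXA6, next to the run, averaged 4.04 FPKM in 5637 and 0.0860 FPKM in UM-UC-3. HOXA5, beyond it, was at 10.5 and 8.42 FPKM against 0.469 to 1.49 FPKM, so this more anterior gene was low but not near 0 in UM-UC-3. On the X chromosome the 4 genes NXT2, ACSL4, TMEM164 and AMMECR1 formed a run, with ACSL4, a fatty acid activating enzyme, at 12.5 and 14.6 FPKM in 5637 and 0 to 0.00839 FPKM in UM-UC-3. The genes STS, PNPLA4 and ANOS1 formed another, with the steroid sulfatase STS at 9.90 and 12.2 FPKM against 0.0401 to 0.0964 FPKM. The hydroxycarboxylic acid receptors HCAR2, HCAR3 and HCAR1, the acute phase genes SAA4 to SAA2, and KRT6B, KRT6A and KRT5 were runs of related genes, where reads shared between copies make single levels uncertain. The same holds for CTAGE4 to ARHGEF5 and for CSAG1 to MAGEA2. Further runs low in UM-UC-3 were C1orf115 to MTARC1 on chromosome 1 and CPE to ANXA10 on chromosome 4. The run low in 5637 held SDC2, CPQ and TSPYL5 on chromosome 8, where the heparan sulfate proteoglycan SDC2 was at 0.00617 and 0 FPKM in 5637 and 2.80 to 5.79 FPKM in UM-UC-3. Whether DNA at these places was lost was not tested.

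The calls were spread unevenly over the chromosomes. The share called higher in 5637 was highest on chromosome 15 (38.4% of 406 tested genes), followed by chromosome 17 (36.7%), chromosome 9 (36.7%), chromosome 21 (34.6%) and the X chromosome (32.2%), against 21.3% of all genes. The share called lower was highest on chromosomes 5 and 10 (37.3% each), followed by chromosome 12 (33.2%) and chromosome 6 (31.0%), against 21.6%. The median difference ran from -0.47 on chromosome 10 to 0.49 on chromosome 15. Genes of a chromosome are not independent, and no test was made of these shares.

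**Figure D3:**
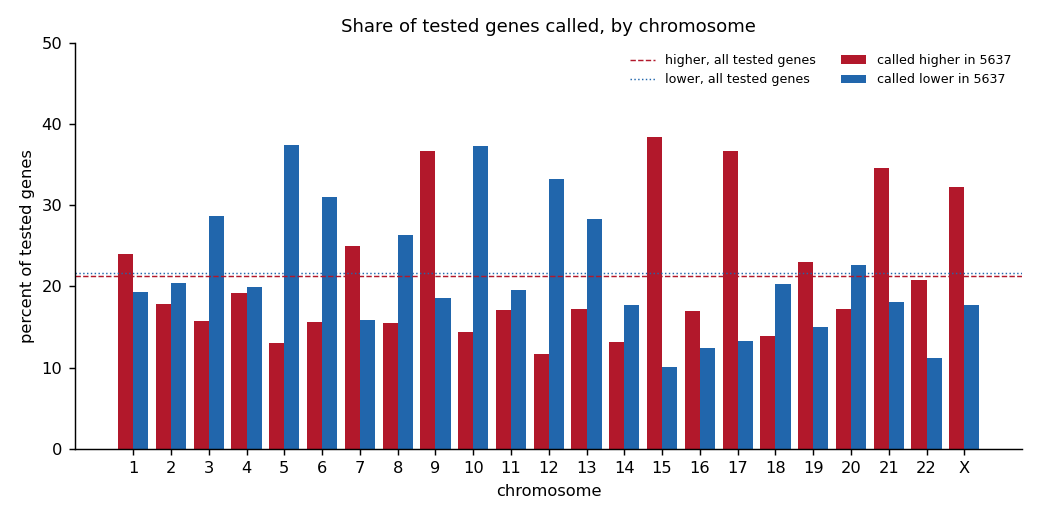
The bars show, for each chromosome on the x axis, the percent of tested genes called higher (red) and lower (blue) in 5637, and the dashed and dotted lines mark the 21.3% and 21.6% of all tested genes. Red bars are tallest on chromosomes 15, 17 and 9, and blue bars on chromosomes 10, 5 and 12.

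Cancer-testis antigens, germline genes that tumours can switch on, differed by family member. Of 37 listed genes 36 had a row, 6 were tested, 4 were called lower in 5637 and 1 higher, or 2 higher without any one of the UM-UC-3 libraries. MAGEA4 was at 0.00770 and 0.0166 FPKM in 5637 and at 21.6, 25.0 and 18.3 FPKM in UM-UC-3, MAGEA10 at 0.00641 and 0.0207 FPKM against 15.6 to 22.3 FPKM, and MAGEC2 at 1.04 and 1.35 FPKM against 49.5 to 68.3 FPKM. MAGEA12 was the reverse, at 5.30 and 6.78 FPKM against 0.0115 to 0.0248 FPKM, and MAGEA3 (-0.36) was not called. The MAGE genes are near-identical copies, so the split of reads among them is uncertain. Of 20 listed imprinted genes 10 were tested, 2 were called higher and 3 lower, or 5 lower without UM-UC-3 sh-NC. The growth factor IGF2 was 6.61-fold higher in 5637, and the splicing gene SNRPN was 2.94-fold higher, a call lost without either 5637 library (adjusted p = 0.057 and 0.056). The signalling adaptor GRB10 was lower (-2.70 ± 0.22), as was PHLDA2 (3.52-fold). GNAS (-0.26) and CDKN1C (-0.16) were not called.

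Proteases and inhibitors of the matrix differed in both directions, with 20 of 25 listed genes tested, 9 called higher in 5637 and 6 lower, or 2 lower without either 5637 library. TIMP3, a metalloproteinase inhibitor bound to matrix, was at 69.1 and 142 FPKM in 5637 and at 0.0879 to 0.263 FPKM in UM-UC-3. SERPINB2, an inhibitor of plasminogen activators, was at 13.5 and 39.9 FPKM against 0.0193 to 0.451 FPKM. The protease ADAMTS1 was at 0.493 and 0.788 FPKM against 13.98 to 28.7 FPKM. The urokinase receptor PLAUR (-0.29) and MMP14 (0.84) were not called, and MMP14 was called higher in 5637 without the UM-UC-3 sh-LNMAT1#1 library (1.44, adjusted p = 0.018).

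Enzymes of detoxification and redox balance were mostly lower in 5637, where 17 of 30 listed genes were tested, 12 were called lower and 4 higher, with a median of -1.40. The 3 largest of the higher genes were ALDH1A3, CYP1A1 and UGT1A6. ALDH1A3, which makes retinoic acid, was at 428 and 479 FPKM in 5637 and at 0.0898 to 0.0929 FPKM in UM-UC-3, and its relative ALDH1A1 was the reverse, at 0 and 0.0142 FPKM against 3.33, 14.9 and 6.63 FPKM. CYP1A1, the aryl hydrocarbon hydroxylase, was at 9.69 and 13.2 FPKM against 0.0272 to 0.0604 FPKM. UGT1A6 was at 5.50 and 4.82 FPKM against 0 to 0.00597 FPKM, with exons shared among UGT1A genes. Among the lower genes, named after their values were seen, were the heme oxygenase HMOX1 (12.9-fold lower), the thioredoxin reductase TXNRD1 (7.13-fold), the glutamate-cysteine ligase subunit GCLM (6.34-fold) and NQO1 (2.61-fold). AKR1C3 (0.54) was not called, and was called higher without the UM-UC-3 sh-LNMAT1#1 library (0.95, adjusted p = 0.017). The count of lower genes was 7 without the 5637 sh-LNMAT1#1 library and 5 without the 5637 sh-LNMAT1#2 library.

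Interferon-stimulated genes were lower in 5637 and spread widely inside UM-UC-3. Of 24 listed genes 21 were tested, 12 were called lower, 0 higher and 9 were not called, with a median of -2.37. IFI6, a small membrane protein induced by interferon, was at 7.16 and 3.20 FPKM in 5637 and at 296, 32.3 and 349.9 FPKM in UM-UC-3. IFIT1, which binds viral RNA, was at 1.14 and 0.318 FPKM against 34.0, 5.53 and 46.1 FPKM, and the RNA sensor DDX58 at 8.94 and 6.98 FPKM against 125, 21.4 and 157 FPKM. In each case the UM-UC-3 library with sh-LNMAT1#1 lay between 5637 and the other UM-UC-3 libraries. OASL (-3.15 ± 0.42) was lower as well, and IRF7 (-0.05) and STAT2 (0.41) were not called. The left-out library labelled 5637 sh-NC, with r = 0.985 to UM-UC-3 sh-LNMAT1#1, was near the 5637 values for IFI6, IFIT1 and DDX58. It held 8.41, 1.18 and 7.93 FPKM of them, so low levels also occurred outside the 5637 knockdown libraries. Its OASL, at 1.24 FPKM, lay between the lines. The call of DDX58 was lost with no filter on low values (adjusted p = 0.070). It was also lost without UM-UC-3 sh-NC (adjusted p = 0.057) or UM-UC-3 sh-LNMAT1#2 (adjusted p = 0.054). The UM-UC-3 sh-LNMAT1#1 library was the lowest of the 3 UM-UC-3 libraries for 21 of the 21 genes, against 40.0% of all tested genes, and its median log2 difference from UM-UC-3 sh-NC over the list was -1.89, against 0.11 for sh-LNMAT1#2. Without it 19 genes were called lower, without UM-UC-3 sh-NC or sh-LNMAT1#2 7 were, and without either 5637 library 3 were.

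**Figure D4:**
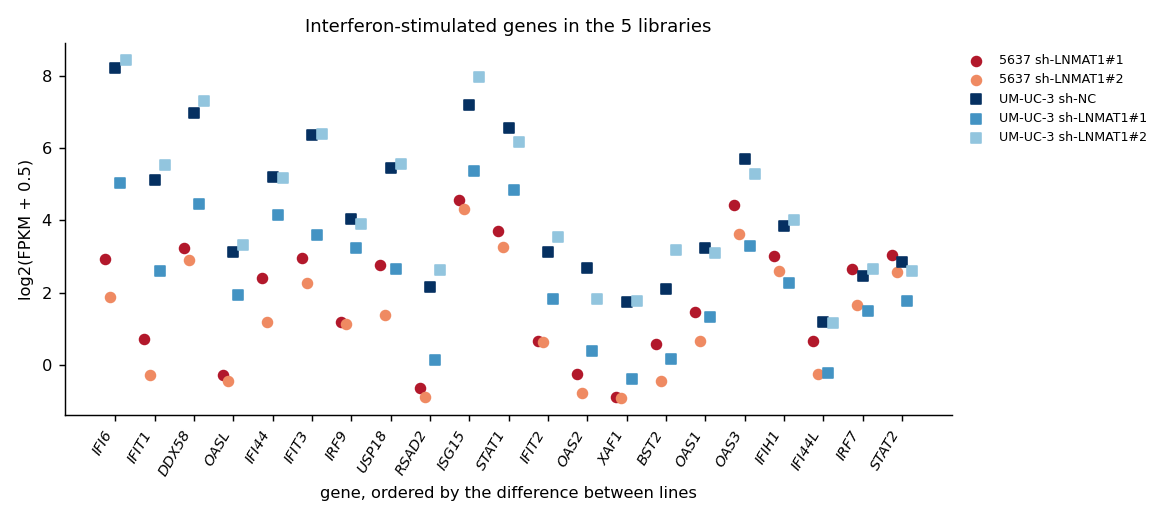
The plot shows the 21 tested interferon-stimulated genes on the x axis, ordered by their difference between lines, and log2(FPKM + 0.5) on the y axis, with circles for 5637 and squares for UM-UC-3. The mid-blue squares of UM-UC-3 sh-LNMAT1#1 lie below the other UM-UC-3 squares for each gene, and for genes such as IRF7 and STAT2 they lie below the 5637 circles.

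Genes of antigen presentation were called in both directions, at shares not far from those of all tested genes. Of 19 listed genes 13 were tested, and 4 were called lower in 5637 (30.8%, against 21.6%) and 2 higher (15.4%, against 21.3%). The UM-UC-3 sh-LNMAT1#1 library was the lowest of its line for 12 of the 13. The class I heavy chains HLA-C (5.72-fold), HLA-B (3.99-fold) and HLA-E (2.21-fold) were lower in 5637, together with HLA-F (-1.15 ± 0.18), whereas the chaperone TAPBP (0.26) was not called. HLA genes are polymorphic and alike in sequence, so reads can be split between them differently in each line. Without the UM-UC-3 sh-LNMAT1#1 library 7 genes were called lower. Without either 5637 library 2 were called lower and 0 higher, and without UM-UC-3 sh-NC 1 was called higher.

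All 25 listed proliferation genes were tested, 4 were called higher in 5637 (16.0%, against 21.3% of all tested genes), 0 lower and 21 were not called. Their median was 0.30, and 19 of the 25 differences were above 0. The called genes were the topoisomerase TOP2A (3.02-fold), the survivin gene BIRC5 (2.43-fold), the checkpoint kinase BUB1B (2.30-fold) and cyclin E, CCNE1 (1.83-fold). E2F1 (-0.01) and BUB1 (0.02) were not called. With no filter on low values TOP2A (adjusted p = 0.083), BIRC5 (adjusted p = 0.11) and CCNE1 (adjusted p = 0.054) were not called. These calls rested on both 5637 libraries, since 0 of the 25 were called without either of them, while 1 was called without UM-UC-3 sh-LNMAT1#2 and 7 with median-ratio scaling. Within UM-UC-3 the median difference of sh-LNMAT1#1 from sh-NC over the list was -1.05, and that of sh-LNMAT1#2 was -0.37.

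Of 12 listed genes often used as loading controls 4 were called higher in 5637 and 2 lower, a share close to the 42.9% of all tested genes. The higher count was 0 without either 5637 library and 2 without UM-UC-3 sh-NC or sh-LNMAT1#2. ACTB was 2.51-fold higher in 5637, and GAPDH and HPRT1 were 1.91-fold and 1.71-fold lower, with the same directions under each scaling. TBP (-0.27 ± 0.22) and GUSB (0.29) were not called. The calls of ACTB and GAPDH were lost without either 5637 library (adjusted p = 0.052 to 0.18), and that of HPRT1 without 5637 sh-LNMAT1#1 (adjusted p = 0.13) or UM-UC-3 sh-LNMAT1#2 (adjusted p = 0.054). With no filter on low values GAPDH was not called (adjusted p = 0.061).

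Over all genes the largest differences included many already named. Besides S100A9, LCN2, ALDH1A3, KRT19, IL1A and SLPI, the 10 highest held the long noncoding RNA UCA1, named for its discovery in urothelial carcinoma, at 146 and 207 FPKM in 5637 and 0.0142 to 0.0511 FPKM in UM-UC-3. Among the 10 lowest were IL13RA2, a decoy receptor for interleukin 13, at 0.203 and 0.326 FPKM in 5637 and 119, 259.8 and 101 FPKM in UM-UC-3, and serglycin (SRGN), a proteoglycan core protein, at 0.143 and 0.0514 FPKM against 48.5, 127 and 42.1 FPKM. CTGF, a matricellular growth factor, was at 3.76 and 2.82 FPKM against 227, 178 and 341 FPKM. These genes had UM-UC-3 values well above both 5637 values in every library. EMP3 (-5.85), PODXL2 (-5.71) and the long noncoding RNA LINC00707 (-5.36) were in this set as well, as were SPARC and MAGEA4 from the lists above.

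Mitochondrial genes also ranked among the extremes, but their exact zeros cannot be read as levels. MT-RNR1, the small ribosomal RNA, was at 444 and 588 FPKM in 5637 and listed at 0 in UM-UC-3, and MT-ND2 was at 30.2 and 48.1 FPKM against 1486 to 1794 FPKM. The pseudogene MTCO2P12 (-7.53), copied from mitochondrial DNA into the nuclear genome, was also among the 10 lowest. Genes that every cell uses were listed at 0 in some libraries, such as MT-CO1 in the UM-UC-3 sh-LNMAT1#1 library against 6422 FPKM in UM-UC-3 sh-NC, so an exact 0 in this table can be a failed estimate. In all, 51 tested genes were listed at 0 in all 3 UM-UC-3 libraries and 66 in both 5637 libraries. The nuclear copy MTATP6P1 was at 1522 and 1219 FPKM in 5637 and at 0.119, 611 and 1.09 FPKM in UM-UC-3, and was not called. Several of the most abundant entries were processed pseudogenes of translation, ribosomal and cyclophilin genes (EEF1A1P5, RPL13AP5, PPIAP22, RPL7P9 and RPL23AP42), which can share reads with their parent genes and are uncertain. TMSB10, a thymosin that binds actin, was the remaining abundant gene, at 957 and 1073 FPKM in 5637 and 1508 to 1592 FPKM in UM-UC-3.

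A stricter look at presence and absence gave 185 genes at 5 FPKM or more in both 5637 libraries and at 0.1 FPKM or less in all UM-UC-3 libraries, of which 166 were protein-coding and 15 long noncoding. The reverse held for 30 genes, 17 protein-coding and 11 long noncoding. Because an exact 0 can be a failed estimate, these counts may hold genes that were not absent: of the 185 genes, MT-RNR1 among them, 98 were listed at 0 in at least 1 UM-UC-3 library and 22 in all 3, and 87 were above 0 in every UM-UC-3 library. Of the 30 genes 16 were listed at 0 in at least 1 5637 library, and 14 were above 0 in both. Of the 185 genes, 28 were in the lists above, 5 each in the junction, regulator and antimicrobial lists and 4 among basal and squamous keratins. Of the 30 genes, 4 were in the lists, ZEB1 and SPARC among mesenchymal genes and MAGEA4 and MAGEA10 among cancer-testis antigens.

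Some called genes varied more inside a line than others, and several of their calls depended on 1 library. Within UM-UC-3 the widest were BIRC3, an inhibitor of apoptosis induced by NF-κB, at 149, 9.72 and 113 FPKM against 2.49 and 4.18 FPKM in 5637, and TMEM158 at 83.7, 418 and 51.4 FPKM against 4.37 and 5.52 FPKM. IFI6 and IFIT1 were in this set too, and LURAP1L was at 3.62, 34.8 and 17.7 FPKM against 1.12 and 1.47 FPKM. The calls of all 5 were lost without either 5637 library (adjusted p = 0.067 to 0.21), that of BIRC3 also without UM-UC-3 sh-NC (adjusted p = 0.070) or sh-LNMAT1#2 (adjusted p = 0.083), and that of LURAP1L also without UM-UC-3 sh-LNMAT1#2 (adjusted p = 0.079). With no filter on low values BIRC3 (adjusted p = 0.093) and LURAP1L (adjusted p = 0.088) were not called. The UM-UC-3 sh-LNMAT1#1 library was the one that stood apart in BIRC3, IFI6, IFIT1 and TMEM158. Within 5637 the widest were the cornified envelope gene SPRR2A, at 3.25 and 46.1 FPKM and listed at 0 in UM-UC-3, and TMEM30B, a flippase subunit, at 20.8 and 2.48 FPKM and also listed at 0. PTGFRN was at 37.9 and 12.6 FPKM, PI3 as given above, and the lysosomal reductase IFI30 at 6.32 and 21.9 FPKM against 3.17 to 4.32 FPKM in UM-UC-3. The call of IFI30 was lost without 5637 sh-LNMAT1#2 (adjusted p = 0.18), without any one of the UM-UC-3 libraries (adjusted p = 0.053 to 0.094) and with no filter (adjusted p = 0.11). The hairpin with the higher value was sh-LNMAT1#2 for SPRR2A, PI3 and IFI30 and sh-LNMAT1#1 for TMEM30B and PTGFRN.

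Markers of cell types that cultures should lack were mostly near 0. The defining leukocyte markers PTPRC and CD3E were at 0.0108 FPKM or less in all 5 libraries, whereas the lysosomal protein CD68, which other cells also make, was at 0.749 and 0.826 FPKM in 5637 and 15.4, 29.2 and 12.97 FPKM in UM-UC-3. Summed over 10 leukocyte markers the level was 1.45 to 1.67 FPKM in 5637 and 13.8 to 29.6 FPKM in UM-UC-3, with CD68 as the 1 gene at 1 FPKM or more. Summed over 8 fibroblast markers it was 6.74 to 8.42 FPKM in 5637 and 0.704 to 1.01 FPKM in UM-UC-3, and the collagen COL1A1 (7.92 and 6.37 FPKM in 5637, 0.0899 to 0.356 FPKM in UM-UC-3) was the 1 gene at 1 FPKM or more, while DCN, LUM and PDGFRB were under 0.5 FPKM in each library. The 9 endothelial markers summed to 0.277 to 1.40 FPKM, with the receptor TIE1 at 1.20 FPKM in the UM-UC-3 sh-LNMAT1#1 library as the 1 value of at least 1 FPKM, and the 7 red cell markers to 0.138 to 0.247 FPKM over the 5 libraries. Whether other cells contributed to the differences between the lines was not tested.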

How the data were processed

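Total RNA of lentivirus-transduced 5637 and UM-UC-3 cells was extracted with TRIzol and sequenced from a stranded mRNA library kit. Expression values were deposited by the authors as FPKM in a single table of genes, and the submitters' processing notes name HISAT2 and hg38. The counting program and annotation are not given in the sources used here. Of 50869 rows 2, a record broken over 2 lines, were left out.

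Depth was read from single-exon genes of GENCODE release 29, where 98.9% to 99.2% of values came out within 0.02 of whole fragments. Depth covers counting error only. Genes averaging 1 FPKM or more across the 5 libraries were tested with limma 3.58.1 (lmFit, and eBayes with a trend) in R 4.3.3 on log2(FPKM + 0.5), 2 against 3 libraries with 3 residual degrees of freedom, at a Benjamini-Hochberg adjusted p under 0.05. An exact permutation test of 2 against 3 libraries cannot go below p = 0.2, so none was run. Tables were made with Python 3.11.15, numpy 2.4.6 and pandas 2.3.3, and the scripts were tested on simulated data.

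The members and lists were chosen with earlier results of these data known. Named were the targeted gene with CCL2 and CCL5, 5 markers, up to 4 called and 2 uncalled genes of each list, the 10 highest and lowest differences among genes of at least 10 FPKM, the 5 widest genes inside each line, controls and the most abundant genes. Alternatives changed the pseudocount, the filter, the scaling, the variance model and the libraries. Some genes chosen by this rule, and 1 run of neighbouring genes, are not reported here.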

Additional observations from a re-analysis of the deposited data

How the results depend on the processing

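With no filter on low values 4634 genes were called higher in 5637 and 3025 lower, so that 60.5% of calls were higher in place of 49.6%, and with a filter of 5 FPKM 1143 were called higher and 1467 lower, from 36179 and 6297 genes tested. Leaving out 1 library at a time gave 1116 to 3189 genes higher and 1040 to 3179 lower. The lowest counts came without a 5637 library: 1116 and 1040 without sh-LNMAT1#1, 1240 and 1131 without sh-LNMAT1#2, where the lone 5637 library is assumed to vary like UM-UC-3. With the library labelled 5637 sh-NC added, 1 gene was higher and 1 lower. Requiring 2-fold besides the call left 1737 lower. With the hairpin number as a replicate block over the 4 knockdown libraries, 2722 genes were higher and 2532 lower, and same-numbered hairpins shared little (r of deviations 0.033, from 2 pairs), so the number was not taken as a pairing. Under this block 10 proliferation genes were called higher, against 4, and CCNE1 was not called (adjusted p = 0.063). In each of these settings and the others tried, the genes called both there and in the comparison as reported kept their direction. The difference of CXCL8 went from 0.02 to -0.66 and was called without UM-UC-3 sh-LNMAT1#1, with a range of -0.66 to 0.40 over the libraries left out. The cause was not tested. Over all named genes and settings 1784 values kept their direction and side of the threshold, 48 values of 20 genes changed sign without being called, 188 kept their direction but lost the call (108 of them with the library labelled 5637 sh-NC added), 15 gained it, and 1 changed sign and was then called. A depth of 19374935 to 24706947 fragments limits genes under 1 FPKM most.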
